A study of Mus musculus with 193 samples.

Results

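The 10 genes described here are Ehmt1, Ehmt2, Suv39h1, Suv39h2, Setdb1, Trim28, Cbx1, Cbx3, Cbx5 and Phf21a, most of which encode proteins that write or read methylation of histone H3 at lysine 9. They were taken by name from the 19557 genes of a single-cell RNA-seq table of mouse testis cells, and all 10 were present. The list was proposed with results of these data known. Ehmt2 and Phf21a had been selected on their difference in mean log2(RPM + 1) between the P3 groups. The values below describe the genes, and no test was made. The products of Ehmt1 (GLP) and Ehmt2 (G9a) work as a heterodimer that adds 1 or 2 methyl groups, mainly in gene-rich chromatin. SUV39H1, SUV39H2 and SETDB1 carry the mark to the trimethylated state, SETDB1 together with the corepressor TRIM28. The HP1 proteins CBX5 (HP1 alpha), CBX1 (HP1 beta) and CBX3 (HP1 gamma) bind the methylated lysine through their chromodomains. PHF21A (BHC80) belongs to the LSD1 and CoREST complex, which removes methyl groups from lysine 4 of the same histone. In male germ cells these enzymes are known for silencing retroelements and for the heterochromatin of meiotic prophase.

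The study compared 71 wild-type cells of postnatal day 3 (P3), 69 cells labelled Rhox10 knockout (KO) of P3, and 53 wild-type cells of postnatal day 7 (P7). All of these cells were positive for an Id4-eGFP reporter: testes were digested, GFP+ cells were sorted, and each cell was captured on a Fluidigm C1 chip. cDNA was made with SMARTer chemistry in the presence of ERCC spike-in RNA, and libraries with Nextera XT. ID4 is an inhibitor of helix-loop-helix factors that marks spermatogonial stem cells, and Rhox10 encodes a homeobox factor. The labels name neither the reporter's promoter, the sort gate, the knockout allele, nor any animal or litter. Letters in the sample titles, which the labels do not explain, divide the cells into 7 sets: WT P3 A (16 cells) and B (55), KO P3 A (21), B (12) and C (36), and WT P7 A (12) and B (41). Cells are not replicates of a condition, so each group counts as 1 sample. The sets only show how far a difference repeats, and intervals given below cover counting error only.

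Values are RPM, a gene's reads relative to all reads of its cell. The recovered total ranged from 251530 to 10663506 reads per cell, and reads on genes from 25424 to 1373776. The sum over genes averaged 111000 RPM per cell in WT P3, 138100 in cells labelled KO and 153900 in WT P7. Ratios of mean RPM given below were not corrected for this. Ddx4 or Dazl, both germ cell genes, exceeded 1 RPM in every cell. The summed level of 5 germ cell genes had its lowest value, 14.7 RPM, in a cell of KO set A, while the lowest cells of the other 6 sets had 481.6 to 1056 RPM. Rhox10 itself had mean levels of 2.48 (A), 2.62 (B) and 0.83 (C) log2(RPM + 1) in the KO sets, and 1.78 (A) and 1.49 (B) in those of WT P3. It was thus higher in KO sets A and B than in both WT P3 sets, and lower in KO set C. The deleted part of the gene is not named, so RNA may not check the label, and the cells are called cells labelled KO throughout. Mean levels of Id4 RNA were lower in all KO and WT P7 sets than in both WT P3 sets. The group differences from WT P3 were -1.67 (KO) and -1.32 (P7) in log2(RPM + 1). KO set A stood apart from the other 6 sets. Its mean level over 21 genes of G2 and mitosis was 1.57, against 2.64 to 4.93 in the other sets, and over 7 genes of undifferentiated spermatogonia it was 1.61, against 3.56 to 3.85. Its mean level over 7 Sertoli cell genes was 1.22, against 0.00 to 0.56. Summed values per cell of KO set A were 0 to 1846 RPM, with a median of 22.8. WT P3 set B also held a cell with a high sum, 669.3 RPM, and WT P3 set A had a median of 10.8. In KO set A and in WT P3 set B alike, none of the 7 genes was at 0 in all cells. Marker lists for erythroid cells, leukocytes, endothelium, Leydig cells and myoid or stromal cells had mean levels of 0.00 to 0.78 in the 7 sets. Results are therefore also given without KO set A. The part of these other genes in the members' values was not tested.

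Sequence before a RefSeq start is shown to place 3 of the genes. They are Ehmt1 and Ehmt2, whose products pair, and Phf21a, which had the largest difference in cells labelled KO. Each sequence is the 250 bases before the most upstream RefSeq start (assembly GRCm38.p6), on the gene's own strand. They lie at chr2:24919610-24919859 (minus strand) for Ehmt1, chr17:34898224-34898473 (plus strand) for Ehmt2 and chr2:92185233-92185482 (plus strand) for Phf21a. Capitals mark E-boxes, CANNTG on either strand, the general hexamer of helix-loop-helix factors. A match does not tell which of these factors would bind it.
Ehmt1: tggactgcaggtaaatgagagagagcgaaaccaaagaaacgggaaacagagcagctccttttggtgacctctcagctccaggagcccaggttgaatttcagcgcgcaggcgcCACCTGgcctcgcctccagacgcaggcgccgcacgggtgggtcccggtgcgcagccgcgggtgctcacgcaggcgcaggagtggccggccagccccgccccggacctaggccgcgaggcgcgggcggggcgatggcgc
Ehmt2: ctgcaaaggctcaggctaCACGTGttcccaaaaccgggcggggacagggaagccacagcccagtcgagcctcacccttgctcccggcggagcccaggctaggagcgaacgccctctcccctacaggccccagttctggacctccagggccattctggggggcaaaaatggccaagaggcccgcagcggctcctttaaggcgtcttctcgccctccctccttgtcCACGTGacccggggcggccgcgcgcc
Phf21a: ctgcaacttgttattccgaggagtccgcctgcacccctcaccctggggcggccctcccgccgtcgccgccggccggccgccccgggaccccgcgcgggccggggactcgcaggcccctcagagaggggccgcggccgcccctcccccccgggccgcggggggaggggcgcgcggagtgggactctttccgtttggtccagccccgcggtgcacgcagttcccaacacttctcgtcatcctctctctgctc

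The Ehmt2 window held 2 E-boxes, both CACGTG, the Ehmt1 window 1, CACCTG, and the Phf21a window 0. Of 32851 RefSeq windows of the same length, 66.2% held at least 1 E-box. GC boxes, GGGCGG or CCGCCC, numbered 2, 2 and 3 in the Ehmt1, Ehmt2 and Phf21a windows, and 32.7% of all windows held at least 1. All 3 windows were rich in CpG, with 26, 18 and 30 CpG in that order against a median of 6 over all windows. Their GC content was 69.2%, 67.6% and 75.6%, against a median of 52.4%. Every GC box and every CACGTG contains a CpG, so these counts are not separate. A match describes the letters and shows no binding. The most upstream RefSeq start of Phf21a lies 92346 bases from the start of the GENCODE principal transcript. Its window falls inside the GENCODE gene, which begins at chr2:92093117, so it is not upstream of that gene model. The table does not say which start was used.

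Across genes, levels can be compared only per kilobase of transcript. On that scale, mean RPM per kb with sets weighted equally, Cbx3 had the highest level in all 3 groups, at 16.8 in WT P3, 12.6 in cells labelled KO and 14.2 in WT P7. In WT P3 its sets (14.9 and 18.8) lay above those of Setdb1 (6.42 and 7.36), which came next at 6.89. Trim28 (4.62) and Suv39h1 (4.42) followed with overlapping sets, then Cbx5 (3.62). Cbx1 (3.13), Suv39h2 (3.00) and Ehmt1 (2.66) formed a run in which each overlapped the next. Ehmt2 (0.94) and Phf21a (0.68) were at the bottom, apart from each other and from the rest.

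The order was different at P7 near the top. Suv39h1, the enzyme of pericentric heterochromatin, was 2nd at 12.9 RPM per kb, and its sets (11.2 and 14.6) overlapped those of Cbx3. Trim28 (10.8) and Setdb1 (9.03) came next, each apart from its neighbours. Suv39h2 (6.71), Cbx5 (6.51), Cbx1 (5.85) and Ehmt1 (5.45) overlapped in turn. Ehmt2 (3.23) and Phf21a (1.21) were again lowest. In cells labelled KO, Cbx3 stood apart from Setdb1 (8.58), while from Setdb1 down to Phf21a (2.78) and Ehmt2 (2.54) each gene overlapped the next.

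**Figure D1:**
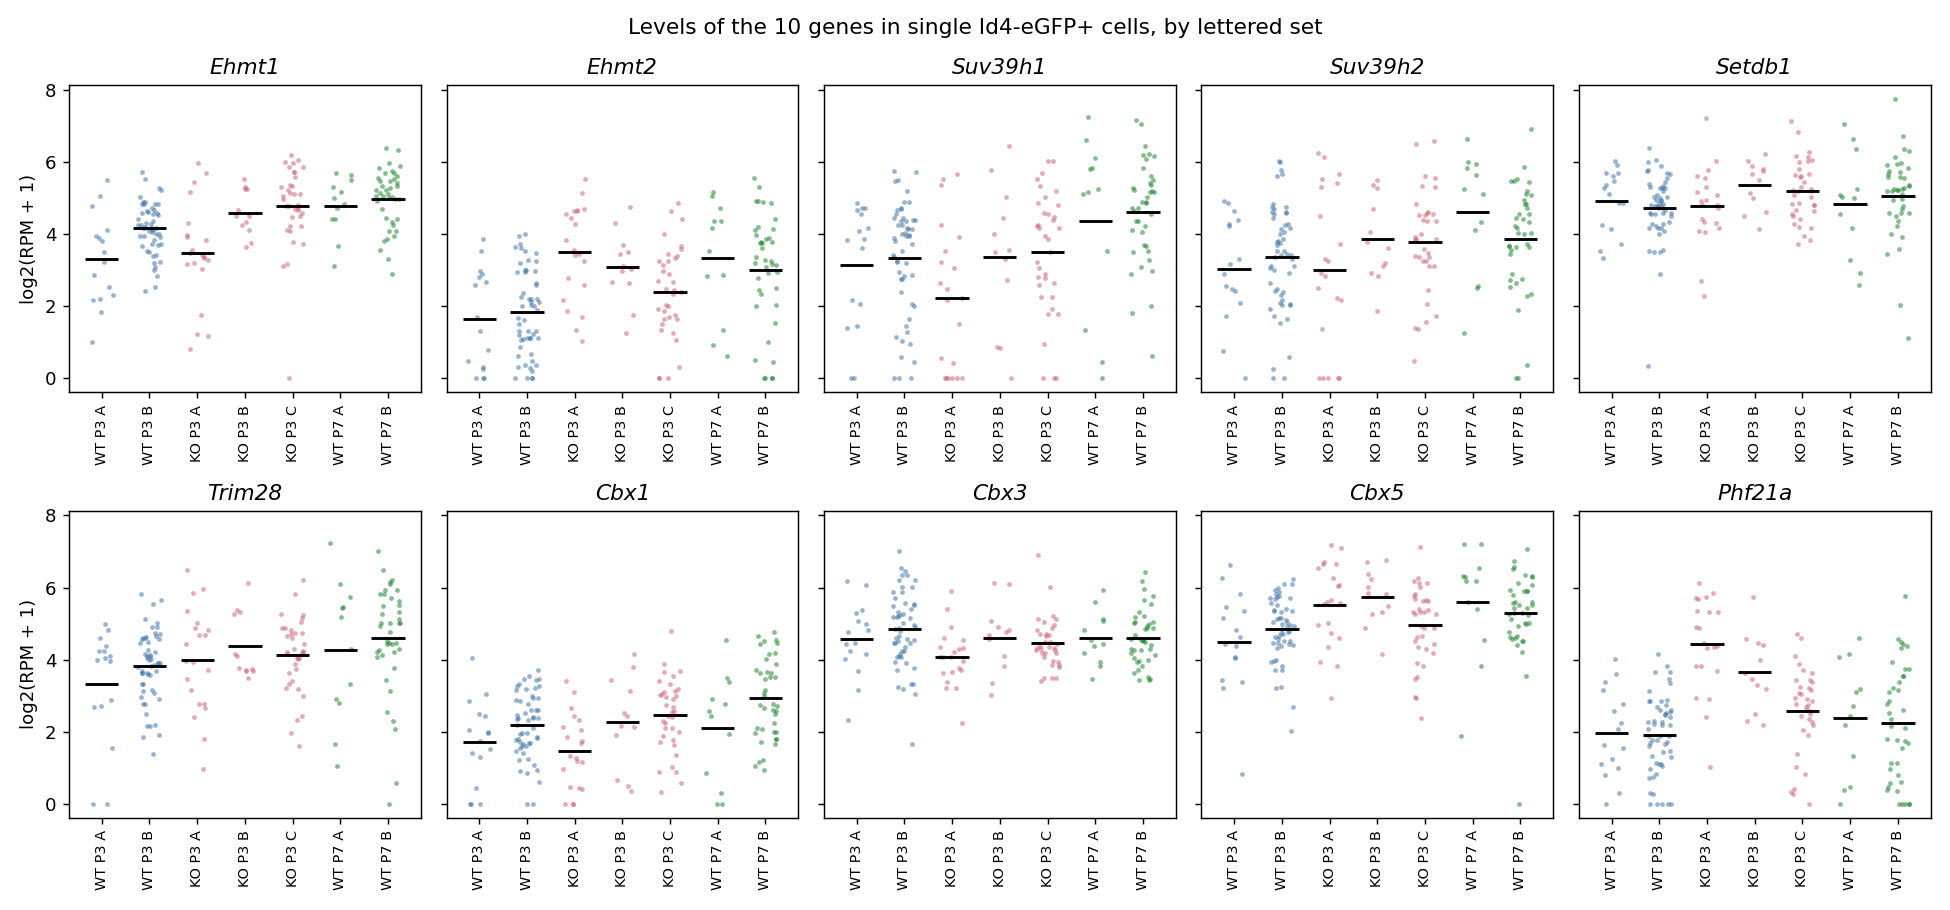
Level of each of the 10 genes, as log2(RPM + 1), in single cells of the 7 lettered sets; each point is 1 cell and each black bar the mean of a set. Ehmt2 and Phf21a lie higher in the 3 KO P3 sets than in both WT P3 sets, and Cbx3 varies least from set to set among the HP1 genes at P7.

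The first comparison, cells labelled KO against WT P3, asks how cells carrying that label differ in gene expression from wild-type cells of the same age. On the deposited scale Phf21a and Ehmt2 had the largest differences, with Cbx5 and Trim28 next, and these 4 of the 10 genes were higher in all 6 pairs of a KO set and a WT P3 set. None of the 10 was lower in all 6. Of the 10147 genes whose mean level over both groups reached 0.5, as did all 10 of the list, 16.4% were higher in all 6 pairs and 5.78% were lower. The median difference of the 10 genes was 0.45 on the log2(RPM + 1) scale, against 0.12 for the 10147. Since the genes were proposed with this comparison known, nothing is read from these counts.

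Ehmt2, which encodes G9a, ranged over the 71 WT P3 cells from 0 to 14.9 RPM with a median of 2.26, and over the 69 cells labelled KO from 0 to 45.1 with a median of 6.79. In WT P3 its mean levels were 1.63 (A) and 1.83 (B) log2(RPM + 1), and the KO sets had 3.50 (A), 3.09 (B) and 2.38 (C). All 3 KO sets lay above both WT P3 sets, KO set A the most, while single cells of the groups overlapped widely. The levels differed by 1.26 (pairs 0.55 to 1.87), and mean RPM was 10.2 against 3.78, a ratio of 2.70. It was 1.01 (0.55 to 1.46) without KO set A, and 1.18 (0.30 to 2.10) after each cell was rescaled to 3848 genes detected in nearly all cells. With both changes it was 0.78 (0.30 to 1.27).

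Ehmt1, which encodes the partner GLP, ranged from 1.02 to 52 RPM with a median of 16.1 in WT P3, and from 0 to 72.4 with a median of 21.8 in cells labelled KO. WT P3 had set means of 3.29 (A) and 4.15 (B) log2(RPM + 1), the KO sets 3.47 (A), 4.59 (B) and 4.78 (C). KO sets B and C lay above both WT P3 sets, but KO set A fell between them. The difference in level was 0.56 (pairs -0.67 to 1.49), and 0.96 (0.44 to 1.49) without KO set A. Within each cell, the log2 ratio of Ehmt2 to Ehmt1 had medians of -1.93 (A) and -2.42 (B) in WT P3. It was 0.13 in KO set A, -1.60 in B and -2.58 in C, so that the difference of 0.83 had pairs of both signs (-0.65 to 2.55). Per kilobase, Ehmt2 exceeded Ehmt1 in 14 of 21 cells of KO set A (66.7%), and in 8.3% to 29.3% of cells in the other 6 sets.

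The SUV39H genes, which encode the enzymes of constitutive heterochromatin, differed less. Suv39h1 ranged from 0 to 53 RPM in WT P3 (median 13.6) and from 0 to 85.8 in cells labelled KO (median 8.29). The WT P3 sets had means of 3.14 and 3.34 log2(RPM + 1), the KO sets 2.21 (A), 3.37 (B) and 3.48 (C). KO set A was lowest of all 7 sets, and KO sets B and C were close to WT P3. The group levels differed by -0.22 (pairs -1.13 to 0.35), and it turned to 0.19 (0.03 to 0.35) without KO set A. Suv39h2, with set means of 3.04 and 3.35 against 3.00, 3.85 and 3.77, had a difference of 0.35 (pairs -0.34 to 0.81), and 0.62 (0.43 to 0.81) without KO set A. The median ratio of Suv39h1 to Suv39h2 within cells was lower in cells labelled KO in all 6 pairs, by -0.62 log2 units (-1.12 to -0.10). From mean RPM the same ratio differed by -0.40 with pairs of both signs (-1.11 to 0.18), so no direction is given for it.

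Setdb1 and its corepressor Trim28 were detected in nearly every cell. Setdb1 had set means of 4.92 and 4.73 log2(RPM + 1) in WT P3 and of 4.77 (A), 5.35 (B) and 5.19 (C) in the KO sets, a difference of 0.28 (pairs -0.15 to 0.62). Trim28 ranged from 0 to 55.6 RPM in WT P3 (median 14.6) and from 0.95 to 88.6 in cells labelled KO (median 16.8). The set means were 3.32 and 3.82 in WT P3, and 3.99 (A), 4.37 (B) and 4.12 (C) for cells labelled KO. All KO sets were above both WT P3 sets by the deposited values, though KO set A by little over WT P3 set B. The difference in level was 0.59 (pairs 0.17 to 1.05), and after rescaling it was 0.44 (-0.06 to 0.87) and pairs had both signs.

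The 3 HP1 genes did not go together. Cbx5 (HP1 alpha) ranged from 0.77 to 98.3 RPM in WT P3 (median 28.1) and from 4.17 to 143 in cells labelled KO (median 40.8). Set means were 4.50 and 4.85 log2(RPM + 1) in WT P3, and 5.52 (A), 5.74 (B) and 4.95 (C) in the KO sets. All KO sets lay above WT P3, KO set C only just, and the difference was 0.73 (pairs 0.10 to 1.24). After rescaling it was 0.55 (-0.27 to 1.20), with the pairs on both sides of 0. Cbx1 (HP1 beta), with set means of 1.71 and 2.18 against 1.46, 2.27 and 2.47, differed by 0.12 (pairs -0.72 to 0.76). Cbx3 (HP1 gamma) ranged from 2.14 to 129 RPM in WT P3 (median 27.4) and from 3.74 to 119 in cells labelled KO (median 18.8). Here WT P3 had set means of 4.57 and 4.85, and the KO sets 4.07 (A), 4.61 (B) and 4.45 (C). Cbx3 was the only one of the 10 genes other than Suv39h1 with a lower group mean, by -0.33 (pairs -0.78 to 0.05). After rescaling it was lower in all 6 pairs, by -0.50 (-0.77 to -0.23), and the same values were obtained when KO set A was also left out. The median log2 ratio of Cbx5 to Cbx1 within cells differed by 0.82 (pairs 0.02 to 2.08), with 4.72 in KO set A, 3.06 in B and 2.79 in C against 2.64 and 2.77 in WT P3. KO set C was thus next to WT P3. With a pseudocount of 0.1 or 10, and from mean RPM, pairs had both signs (-0.50 to 1.68 from mean RPM), so no direction is given for this ratio.

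Phf21a, the subunit of the LSD1 and CoREST complex, had the largest difference of the 10. It ranged from 0 to 16.9 RPM in WT P3 (median 2.70) and from 0 to 69.1 in cells labelled KO (median 8.40). Both WT P3 sets were low, at means of 1.97 and 1.91 log2(RPM + 1), and the KO sets had 4.43 (A), 3.65 (B) and 2.57 (C). Every KO set exceeded both WT P3 sets, and the KO sets differed more from each other than KO set C did from WT P3. The difference in level was 1.61 (pairs 0.61 to 2.52), and mean RPM was 16.7 against 4.10, a ratio of 4.08. Without KO set A the difference was 1.17 (0.61 to 1.74), after rescaling 1.51 (0.39 to 2.69), and with both 0.93 (0.39 to 1.47).

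Over the list, the count higher in all pairs moved with KO set A and with the scale. Without KO set A, 9 of the 10 genes, all but Cbx3, were higher in all 4 remaining pairs and 0 were lower, against 36.4% and 9.41% of 9983 genes. After rescaling with all sets, Ehmt2 and Phf21a were higher in all pairs and Cbx3 was lower, against 10.7% and 11.2% of genes. With both changes Ehmt1, Ehmt2, Suv39h2 and Phf21a were higher and Cbx3 was lower, against 18.3% and 19.8%. With values scaled to reads on genes 2 were higher and 1 lower, against 8.55% and 12.8% of genes, and in cells thinned to 100000 reads on genes 2 and 1, against 8.13% and 13.1%. With RPM averaged before the logarithm 5 were higher and 0 lower, against 23.8% and 3.32%. Rescaling moved the median difference of all genes from 0.115 to 0.013. Ehmt2 and Phf21a were higher in all pairs in all 14 alternative settings with pairs of sets. Settings that only left out a set or changed the level filter reuse the same set values, so they could not alter this call. Both genes had also been selected on this difference, so nothing is read from the 14.

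**Figure D2:**
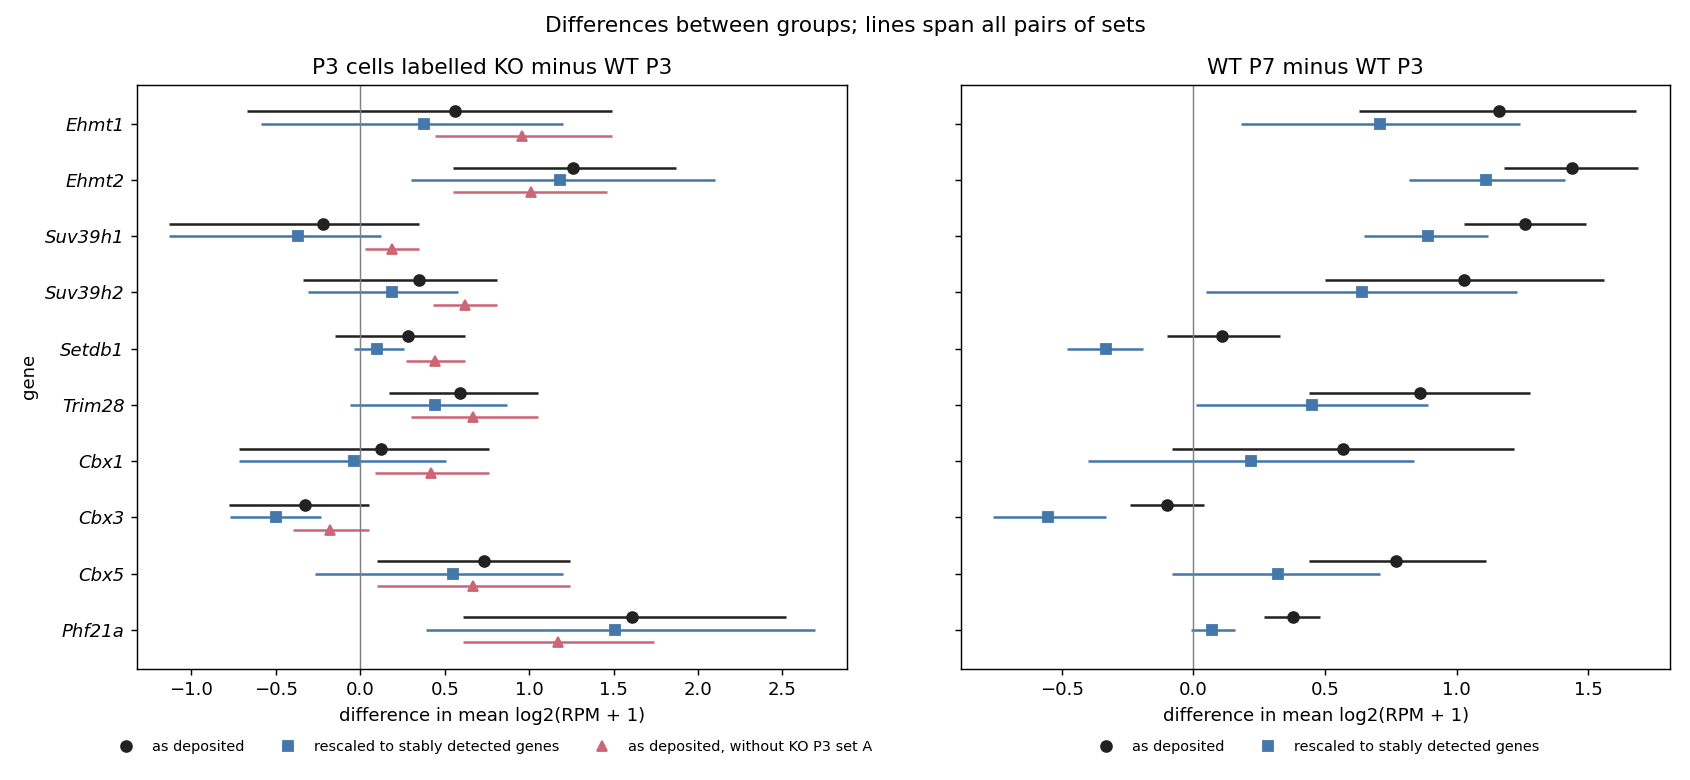
Difference in mean log2(RPM + 1) for each gene in the comparison of cells labelled KO with WT P3 (left) and of WT P7 with WT P3 (right); points are differences of group values and lines span all pairs of sets. Ehmt2 lies to the right of 0 in both panels at every setting drawn, and Cbx3 lies to the left of 0 in both after rescaling.

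The second comparison, WT P7 against WT P3, follows the same genes from P3 to P7 in wild-type cells. It shares the WT P3 cells with the first, so only each comparison's own values are set side by side. On the deposited scale Ehmt2, Suv39h1, Ehmt1 and Suv39h2 had the largest differences, each above 1 on the log2 scale. Counting Trim28, Cbx5 and Phf21a, 7 of the 10 genes were higher in all 4 pairs of sets and none was lower, while 32.9% of 9659 genes were higher in all 4 and 18.7% lower. The median difference of the 10 was 0.82, against 0.10 for the 9659. The genes were proposed with this comparison known too.

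Ehmt2 ranged from 0 to 46.1 RPM at P7 with a median of 8.64. Its set means were 3.32 and 3.01 log2(RPM + 1) in WT P7 sets A and B, both above the 2 WT P3 sets given earlier. The difference in level was 1.44 (pairs 1.18 to 1.69), and mean RPM was 13 against 3.78, a ratio of 3.44. For Ehmt1, the range at P7 was 6.46 to 81.8 RPM with a median of 32.5, and the set means of 4.78 and 4.97 both exceeded WT P3. The difference was 1.16 (pairs 0.63 to 1.68), a ratio of mean RPM of 2.05. The ratio of Ehmt2 to Ehmt1 within cells was higher by 0.44 (pairs 0.08 to 0.79) with a pseudocount of 1, but it was -0.25 (-0.69 to 0.19) with a pseudocount of 10, so no direction is given for it.

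Suv39h1 ranged from 0 to 151 RPM at P7 (median 28.8). The set means of 4.37 and 4.62 log2(RPM + 1) were the highest of the 7 sets, and both were above WT P3. The difference in level was 1.26 (pairs 1.03 to 1.49), with mean RPM of 40.2 against 13.8, a ratio of 2.92. Suv39h2 ranged from 0 to 120 RPM (median 17.6), and its set means were 4.59 and 3.85, again both above WT P3. The difference was 1.03 (pairs 0.50 to 1.56), a ratio of mean RPM of 2.24. In cells labelled KO, by contrast of values only, the Suv39h1 difference was -0.22 and that of Suv39h2 was 0.35.

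Trim28 ranged from 0 to 151 RPM at P7 (median 29.3), with set means of 4.27 and 4.60 log2(RPM + 1), both above WT P3. The difference in level was 0.86 (pairs 0.44 to 1.28), a ratio of mean RPM of 2.34. Setdb1 ranged from 1.15 to 214 RPM (median 35.8), and its set means of 4.82 and 5.06 overlapped those of WT P3. Its difference was 0.11 (pairs -0.10 to 0.33) as deposited, and -0.33 (-0.48 to -0.19) after rescaling, which is lower in all pairs. With RPM averaged before the logarithm it was 0.38 (0.28 to 0.49), higher in all pairs, so no direction is given for Setdb1. The ratio of Setdb1 to Trim28 within cells, which the scale of a cell moves only through the pseudocount, was lower at P7 in all 4 pairs, by -0.76 (-1.15 to -0.38).

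Among the HP1 genes, Cbx5 ranged from 0 to 148 RPM at P7 (median 44.5). Its set means of 5.60 and 5.28 log2(RPM + 1) were above both WT P3 sets, and the difference was 0.77 (pairs 0.44 to 1.11). After rescaling the Cbx5 difference was 0.32 (-0.08 to 0.71), with pairs of both signs. Cbx1 had set means of 2.10 and 2.93, with WT P7 set A between the WT P3 sets, and a difference of 0.57 (pairs -0.08 to 1.22). Cbx3 had set means of 4.61 and 4.61, both between the WT P3 sets, and a difference of -0.10 (pairs -0.24 to 0.04). After rescaling Cbx3 was lower in all 4 pairs, by -0.55 (-0.76 to -0.33). The ratio of Cbx3 to Cbx1 within cells was lower in all 4 pairs, by -1.06 (-1.56 to -0.56).

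Phf21a, which led the first comparison, depended on the scale at P7. It ranged from 0 to 53.1 RPM with a median of 4.10, and its set means of 2.39 and 2.24 log2(RPM + 1) lay above those of WT P3. The difference was 0.38 (pairs 0.27 to 0.48), and mean RPM was 7.29 against 4.10, a ratio of 1.78. With RPM averaged before the logarithm it was 0.70 (0.62 to 0.79), after rescaling 0.07 (-0.01 to 0.16), and with cells thinned to 100000 reads on genes -0.10 (-0.12 to -0.08). It was higher in all pairs in 10 of 12 alternative settings and lower in 1. The 10 include settings that left out a set or changed the level filter, which could not alter the deposited call. No direction is therefore given for Phf21a at P7.

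Rescaling moved the median of all 9659 genes at P7 from 0.102 to -0.152. On that scale Ehmt1 (0.71), Ehmt2 (1.11), Suv39h1 (0.89), Suv39h2 (0.64) and Trim28 (0.45) were higher in all 4 pairs, and Setdb1 and Cbx3 lower. Among all genes 17.1% were higher and 35% lower on that scale. With values scaled to reads on genes 5 were higher and 2 lower, against 17.7% and 33.5%, and in thinned cells 4 and 3, against 17.1% and 32.3%. With RPM averaged before the logarithm 9 were higher and 1 lower, against 48.1% and 9.32%. Ehmt1, Ehmt2 and Suv39h1 were higher in all pairs in all 12 alternative settings with pairs of sets, Suv39h2 in 11, and Trim28 and Cbx5 in 10. Those that left out a set or changed the level filter reuse the same set values. They could not alter a call shared by all pairs, so the 12 are not separate checks. The 2 WT P7 sets differed in mitotic genes, with mean levels of 2.64 in set A and 4.93 in set B, and the part of these genes in the P7 differences was not tested.

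Detection is a separate view of the same reads. Ehmt2 exceeded 1 RPM in 51 of 71 WT P3 cells (71.8%, Clopper-Pearson 95% interval 59.9 to 81.9%), in 65 of 69 cells labelled KO (94.2%, 85.8 to 98.4%) and in 45 of 53 WT P7 cells (84.9%, 72.4 to 93.3%). After thinning, which left out 5 shallow WT P3 cells, the shares with at least 1 read were 77.3%, 85.5% and 83.0%. Phf21a exceeded 1 RPM in 78.9% (67.6 to 87.7%), 92.8% (83.9 to 97.6%) and 71.7% (57.7 to 83.2%) of cells, and the thinned shares were 80.3%, 94.2% and 73.6%. The thinned Ehmt2 shares lay closer together than the unthinned ones, while those of Phf21a remained as far apart. Suv39h1 exceeded 1 RPM in 88.7% (79 to 95%), 78.3% (66.7 to 87.3%) and 94.3% (84.3 to 98.8%), with 61.9% (38.4 to 81.9%) in KO set A. Cbx3 was above 1 RPM in every cell.

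**Figure D3:**
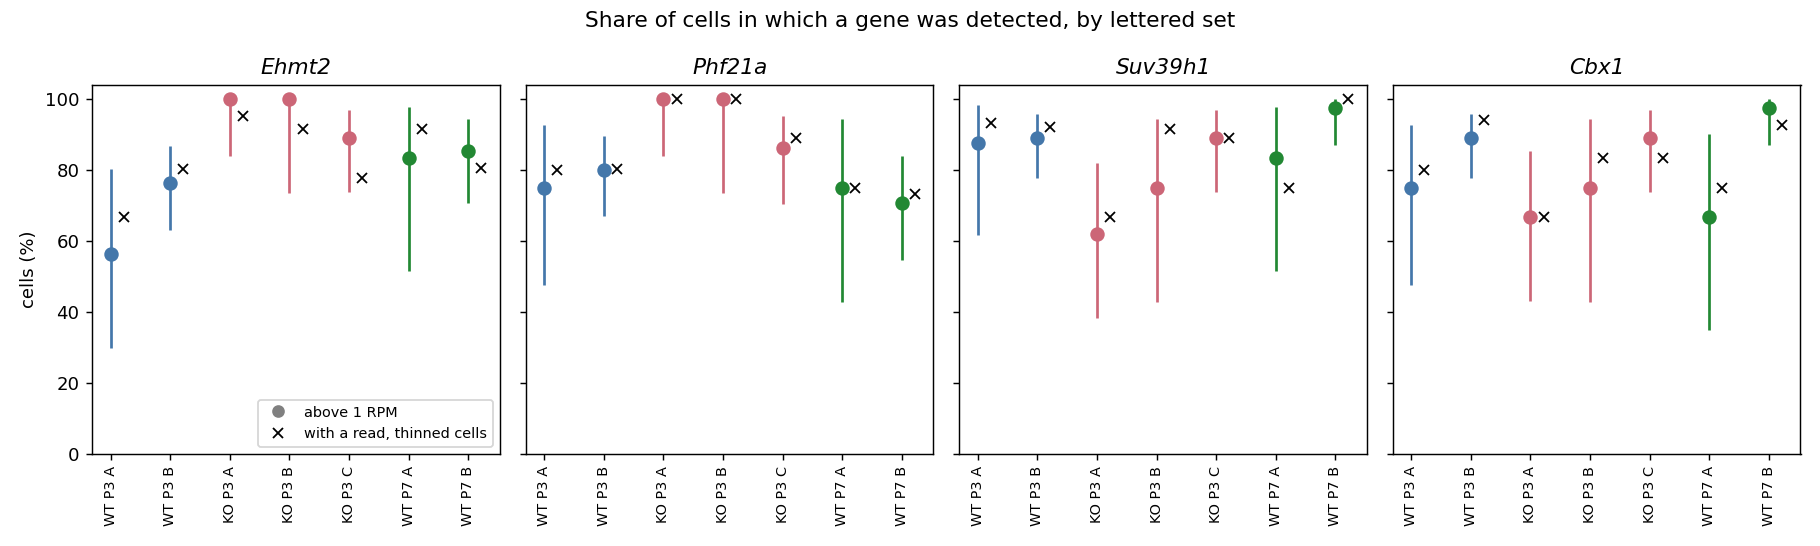
Share of cells of each lettered set in which Ehmt2, Phf21a, Suv39h1 or Cbx1 exceeded 1 RPM (points, with exact 95% binomial intervals) and share with a read after thinning to 100000 reads on genes (crosses). Ehmt2 was above 1 RPM in 100% of cells of KO sets A and B and 88.9% of KO set C, and in 56.2% and 76.4% of WT P3 sets A and B. After thinning KO set C had 77.8%, below the 80.4% of WT P3 set B.

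Summed over cells, Ehmt2 had 1298 reads in WT P3 (exact Poisson 95% interval 1228 to 1371), 3516 in cells labelled KO (3400 to 3635) and 2148 in WT P7 (2058 to 2241). Of the 3516 reads, 1858 (1774 to 1945) came from the 21 cells of KO set A. Phf21a had 1406 reads (1333 to 1482), 5161 (5021 to 5304) and 1282 (1212 to 1355), with 3222 (3111 to 3336) in KO set A. These sums depend on the number and depth of the cells, so they show how many reads lie behind the levels.

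Most cells held RNA of most of the 10 genes. The median number above 1 RPM per cell was 9 in WT P3, 10 in cells labelled KO and 9 in WT P7, and 9 in each group after thinning. All 10 were above 1 RPM in 40.8%, 55.1% and 43.4% of cells. Between cells of 1 set, Suv39h1 had standard deviations of 1.39 to 2.46 on the log2(RPM + 1) scale in the 7 sets, and Cbx3 of 0.70 to 1.04.

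Within sets, the 10 genes showed little common variation between cells. Over all cells with set means subtracted and each cell rescaled, the 45 Pearson correlations between members ran from -0.12 to 0.21, with a median of 0.04. The highest was that of Suv39h2 with Cbx5. Correlations of the members with the mean of 20 S phase genes ran from -0.11 for Phf21a to 0.21 for Ehmt1. With the 21 genes of G2 and mitosis they ran from -0.08 to 0.12. Of 4663 other genes that reached a mean level of 2, Exoc3 (0.30), Fxr2 (0.27), Cox7a2l (0.27), Snap29 (0.27) and H2-Ke2 (0.26) had the highest correlation with Ehmt2 over the same cells. Points share library and depth, and values this weak in sparse counts are no finding.

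Partner genes of the pathway were described from 5 lists of 54 genes in all, each present in the table. In cells labelled KO, 8 of the 49 that reached a mean level of 0.5 were higher in all 6 pairs and 3 were lower, with a median of 0.22. These counts correspond to the 16.4% and 5.78% of all genes given above. After rescaling the counts were 4 and 5 with a median of 0.10, against 10.7% and 11.2% of all genes. Without KO set A they were 22 and 3, against 36.4% and 9.41%. At P7, 18 of 47 were higher in all 4 pairs and 6 lower, against 32.9% and 18.7% of all genes, with a median of 0.16. After rescaling they were 8 and 17, against 17.1% and 35%, with a median of -0.24, so the partners' median had the other sign on that scale. The same all-gene shares apply to the counts of each list below, and the lists are short.

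Among 9 partners of G9a and GLP, 2 were higher and 1 lower in all pairs in cells labelled KO. Zfp644, a zinc finger protein that binds the heterodimer, differed by 0.64 (pairs 0.17 to 0.96) and Pcgf6, a subunit of a variant Polycomb complex, by -0.49 (-0.95 to -0.07). At P7, 2 were higher and 3 lower, with L3mbtl2 at 0.80 (pairs 0.40 to 1.20) and Pcgf6 at -0.60 (-0.98 to -0.22). The list's median at P7 was -0.25, on the other side of 0 from Ehmt1 and Ehmt2. After rescaling 1 was higher and 6 lower at P7, with a median of -0.58.

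Among partners of SETDB1, TRIM28 and the HUSH complex, 3 of 11 were higher and 1 lower in all pairs in cells labelled KO. Zfp809, which recruits TRIM28 to retroviral sequence, differed by 0.59 (pairs 0.18 to 0.97). Atf7ip, the stabilising partner of SETDB1, differed by 0.50 (0.11 to 1.03), and by 0.35 after rescaling with pairs of both signs. D14Abb1e, the table's symbol for the HUSH subunit TASOR, differed by -0.28 (-0.56 to -0.02). At P7, 5 of 12 were higher and 2 lower, and after rescaling 3 were higher and 5 lower, with a median of -0.33. Setdb2, a relative of SETDB1, was higher by 0.85 (pairs 0.08 to 1.63), with pairs of both signs after rescaling. Zfp57, which directs TRIM28 to imprinted regions, was lower by -0.64 (-1.01 to -0.26), at levels of 0.32 at P7 and 0.95 in WT P3. Zfp809 was lower at P7, by -0.45 (-0.60 to -0.30), at low levels of 0.28 at P7 and 0.74 in WT P3. Both reached the mean level of 0.5 only through WT P3, so nothing is read from their calls at P7.

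Among 12 partners of HP1 and heterochromatin assembly, none was higher or lower in all pairs in cells labelled KO, and 6 were higher without KO set A. Pogz, an HP1-binding zinc finger protein, had the highest value of the list, 0.59 (pairs -0.09 to 1.27). At P7, 5 of them were higher across all pairs and 0 lower, but after rescaling 1 was higher and 2 lower, with a median of -0.03. Ssrp1, a subunit of the histone chaperone FACT, had the largest difference, 1.12 (pairs 0.78 to 1.45), and 0.66 after rescaling.

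In the LSD1 and CoREST complex, to which PHF21A belongs, 1 of 9 was higher and 1 lower in all pairs in cells labelled KO. Hdac2, a deacetylase of the complex, was lower by -0.70 (pairs -1.38 to -0.10). At P7, 5 of the 7 that reached the level of 0.5 were higher and none lower, with a median of 0.87, against 32.9% and 18.7% of all genes. After rescaling 3 were higher and 1 lower, with a median of 0.47. Rcor1, a CoREST subunit named here after its value was seen, was under that level and was lower by -0.64 in all pairs. Zmym3, a zinc finger subunit, was higher by 1.48 (pairs 1.16 to 1.79) and Hdac1 by 0.96 (0.49 to 1.43), and both were higher in all pairs after rescaling.

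Of the enzymes that remove methyl groups from lysine 9, 2 of 8 were higher in all pairs in cells labelled KO and 0 lower. Kdm3a had a difference of 1.18 (pairs 0.08 to 1.96), of the size of that of Ehmt2, and 1.02 after rescaling with pairs of both signs. At P7, 1 of 7 was higher and 1 lower: Kdm3b differed by 1.01 (pairs 0.39 to 1.64) and Kdm4c by -0.71 (-1.40 to -0.03). Kdm4c had levels of 0.38 at P7 and 1.09 in WT P3. It reached the mean level of 0.5 only through WT P3, so nothing is read from its call. After rescaling none was higher and 3 were lower, and Kdm3b, at 0.67, had pairs of both signs.

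**Figure D4:**
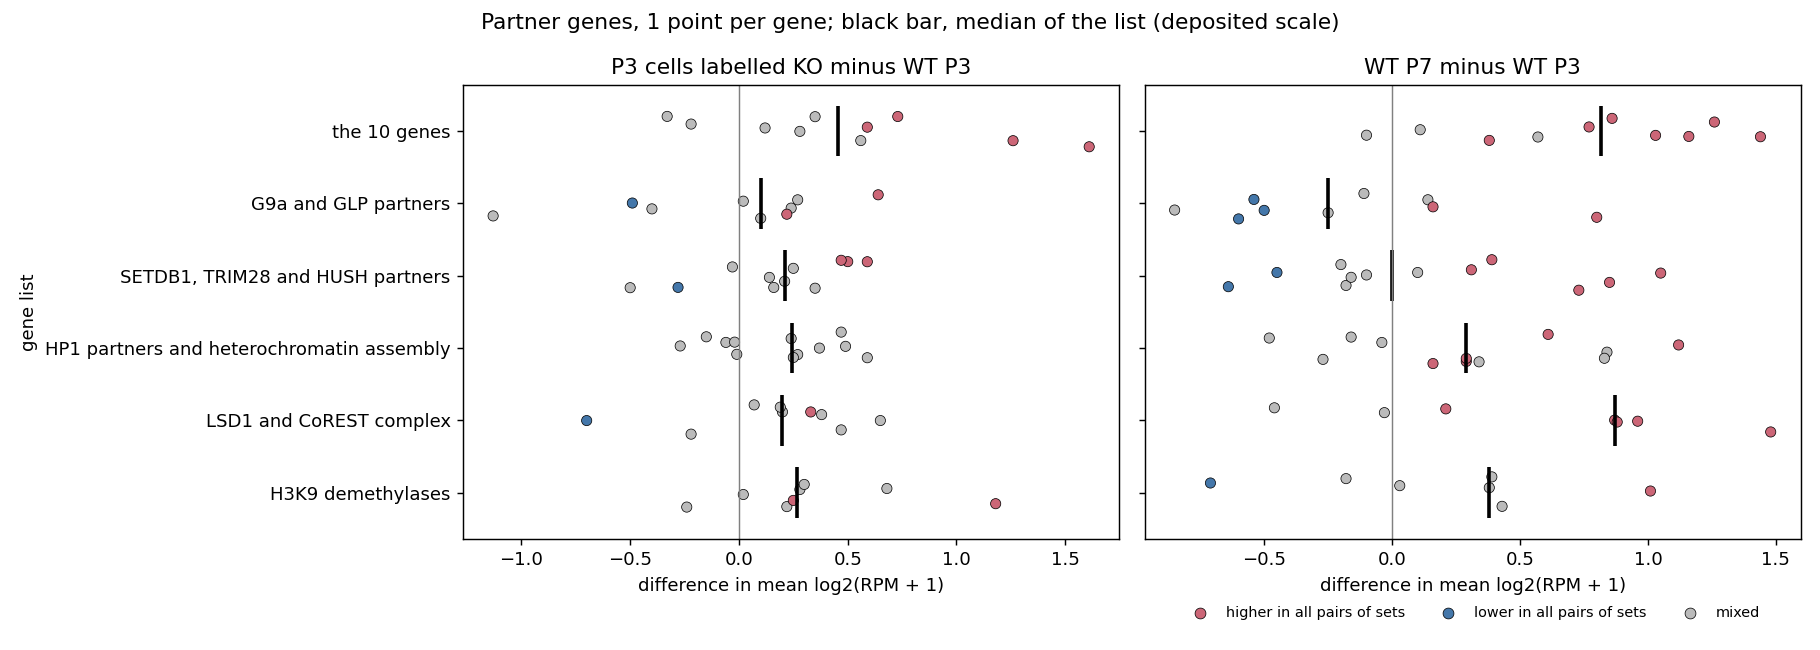
Difference in mean log2(RPM + 1) on the deposited scale for the 10 genes and for each measured gene of the 5 partner lists, in both comparisons; points are genes, coloured by whether all pairs of sets share a sign, and black bars are list medians. The LSD1 and CoREST list has a median of 0.87 at P7, which is 0.47 after rescaling, and of 0.20 in cells labelled KO.

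By GENCODE M21, Setdb1, Suv39h1 and Suv39h2 overlap exons of genes on the other strand, over 322, 551 and 357 bases. Whether the counting used strand is not stated, so reads of both genes cannot be told apart there. Cbx3 has 8 named pseudogenes in that annotation and none of them is in the table, so its values may leave out or take in reads that align to the copies.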

How the data were processed

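The table deposited by the authors is named TPM, but its values are RPM without a length term: in each cell they were whole multiples of 1 step. With a tolerance of 0.001 RPM, 100.0% of values came out as whole reads on average, and 99.99% in the lowest cell. The table's rows held 8.13% to 23.0% of a cell's total. STAR 2.3.0, HTSeq 0.6.1 and build mm10 appear in the submitters' processing notes, without their roles. Not given in the sources used here are the annotation, whether strand was used and how reads with several alignments were treated.

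Of 19642 rows, 84 ERCC rows and Rn45s were left out. A level is the mean over cells of log2(RPM + 1), and a group's value is the unweighted mean of its sets. Differences are on that scale, which understates those of low genes. The range covers all pairs of sets. With 1 sample per group no p-value was computed, and no count test was run on the recovered reads. Rescaling used the median ratio over 3848 genes above 0 in at least 90% of cells. Thinning drew 100000 reads on genes. Lengths are those of GENCODE M21 principal transcripts.

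The members and lists were chosen with earlier results of these data known. All members are named, with up to 2 highest and 2 lowest genes per partner list and comparison, and the 5 genes most correlated with Ehmt2. Some genes of the partner lists are not reported here by name. Rhox10 and Id4 were included as a check of the labels, which RNA may not give. Alternatives were pseudocounts of 0.1 and 10, 3 other scalings, RPM averaged before the logarithm, cells weighted equally, other level filters and each set left out. Rescaling together with leaving out KO set A was chosen after seeing the data. Scripts ran in Python 3.11.15 with numpy 2.4.6, pandas 2.3.3 and scipy 1.17.1 and were tested on simulated data.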

Additional observations from a re-analysis of the deposited data

How the results depend on the processing

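In cells labelled KO against WT P3, the number of the 10 genes higher in all pairs was 4. It was 2 after rescaling, 2 with values scaled to reads on genes and 2 in thinned cells, and leaving out 1 set at a time gave 4 to 9, with 9 without KO set A. Fewer pairs remain when a set is left out. Over all genes the share higher in all pairs then rose from 16.4% to between 19.9% and 36.4%, and the share lower from 5.78% to between 9.41% and 17.3%. All-gene shares for the other scalings are given in the sections above. The number lower in all pairs, 0 as deposited, was 1 (Cbx3) after rescaling, 1 when scaled to reads on genes and 1 in thinned cells, and 0 to 1 when a set was left out, with Cbx3 at -0.47 without WT P3 set A and -0.45 without KO set B. At P7, the number higher was 4 in thinned cells, against 7. The number lower, 0 as deposited, was 2 after rescaling, 2 when scaled to reads on genes, 3 in thinned cells, 1 with RPM averaged before the logarithm, and 0 to 1 when a set was left out, with Cbx3 at -0.24 without WT P3 set A. The median difference at P7, 0.82, was 0.38, 0.40 and 0.39 under the first 3 of these scalings. When a set was left out at P7, the share of all genes higher in the remaining pairs rose from 32.9% to between 41.6% and 52.8%. The share lower rose from 18.7% each time. This rise was least without WT P3 set A, and the share lower was 25.7% without WT P7 set A and 38% without WT P7 set B.

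Some values of the 10 genes whose pairs shared a sign as deposited changed sign. These were Phf21a at P7 (-0.10 thinned) and the ratio of Ehmt2 to Ehmt1 at P7 (-0.25 with a pseudocount of 10). The median of all partner genes changed sign at P7 (-0.24 rescaled, -0.22 scaled to reads on genes and -0.24 thinned, against 0.16). In cells labelled KO it was -0.03 thinned, against 0.22. At P7 the median of the HP1 partner list was -0.03 rescaled, against 0.29. Mga, of the G9a and GLP list, was higher in all pairs at P7 by 0.16, but -0.30 and lower in all pairs after rescaling. Of genes with pairs of both signs as deposited, Setdb1 at P7 (0.11) was -0.33 rescaled, -0.32 scaled to reads on genes and -0.20 thinned, and Cbx3 at P7 (-0.10) was 0.04 without WT P3 set B. In cells labelled KO, Suv39h1 (-0.22) was 0.19 without KO set A and 0.16 with RPM averaged before the logarithm. Cbx1 (0.12) was -0.04 rescaled, -0.08 scaled to reads on genes, -0.04 thinned, -0.12 without WT P3 set A and -0.08 without KO set C. The ratio of Ehmt2 to Ehmt1 in cells labelled KO (0.83) was -0.02 with a pseudocount of 10, and that of Cbx5 to Cbx1 at P7 (0.16) was -0.10 with a pseudocount of 0.1 and -0.05 from mean RPM. The cause was not tested. For the 10 genes, counts and medians of the 2 comparisons stayed within the limit set for them 61 times over the alternative settings. They moved beyond it 19 times. No paired analysis was possible because the numbers in the titles name single cells and pair none. Limits: each group is 1 sample, the letters of the sets are unexplained, and no animal is named. Depth limits detection of Ehmt2, Phf21a and Cbx1, which have few reads per cell.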
